A study of Mus musculus with 8 samples.

Results

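The MHC class II presentation genes encode the proteins with which antigen-presenting cells show peptides to CD4 T cells, and 10 of them were read from a table of 19129 genes measured in mouse pancreatic tumour isografts. The members were chosen by name: H2-Aa, H2-Ab1 and H2-Eb1 (chains of the class II molecules), Cd74 (the invariant chain), Ciita (the transactivator), H2-DMa, H2-DMb1 and H2-DMb2 (the peptide exchange factor), H2-Oa (its inhibitor) and Ctss (cathepsin S). All 10 were measured, and all 10 had at least 15 reads in every library. RNA came from freshly isolated tumours of 8 mice. Of these, 4 carry the label control and 4 the label MEKi, which stands for trametinib given over 7 days. Trametinib blocks MEK1 and MEK2, the kinases that switch on ERK. The sources used here do not give the mouse strain, the tumour line behind the isografts or the treatment of the control mice. Libraries are called below by label and replicate number, and each comes from a separate mouse by the study's design text.

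Class II molecules are made of an alpha and a beta chain that assemble in the endoplasmic reticulum with the invariant chain, which blocks the peptide groove and sends the complex to endosomes. There proteases, cathepsin S among them, trim the invariant chain down to a short peptide, and the DM heterodimer exchanges this peptide for others, while the DO heterodimer restrains DM. Dendritic cells, B cells and macrophages carry class II, and interferon gamma can induce it in other cell types through IRF1 and the transactivator CIITA, which acts with the RFX, CREB and NF-Y factors at class II promoters.

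The table holds variance-stabilised values on a log2-like scale, on which a step of 1 means nearly double the reads for an abundant gene, while for a scarce gene it stands for a larger change. Reads in the tested genes, recovered from these values, numbered between 20090101 and 38569550 per library. ERK target genes did not follow the labels. Dusp6, which encodes an ERK phosphatase that ERK activity switches on, lay at 12.19, 12.14, 9.31 and 9.24 in control 1 to 4 and at 8.88, 12.12, 12.20 and 11.01 in MEKi 1 to 4. High and low libraries were thus found under both labels, and whether all libraries carry the right label cannot be told from the sources used here. Every difference below therefore sets libraries by their label, not by a measured response. Acinar genes marked 2 control libraries: the 13 measured acinar markers summed to 123337 RPM (reads scaled to library size) in control 3 and 42288 in control 2, against 19.9 to 2623 in the other libraries. Tumour epithelial markers were present in every library (10 of 10 markers above 0 reads, with sums of 5121 to 7424 RPM). Their mean log2 value was lowest in MEKi 4, at 12.03 against 12.51 to 12.75 in the other libraries.

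The chains of the classical class II molecules varied by about 3-fold between tumours, and they did so within each label. H2-Aa, the alpha chain gene of the I-A molecule (chromosome 17, 34282744 to 34287823, GRCm38), lay at 13.98, 14.34, 13.96 and 15.20 in control 1 to 4 and at 14.82, 13.90, 15.21 and 14.75 in MEKi 1 to 4. The highest control library and the highest MEKi library were level, and the lowest library of all carried the MEKi label. The control mean was 14.37 ± 0.58 and the MEKi mean 14.67 ± 0.56 (SD, n = 4 each), a difference of 0.30 (SE 0.33, 95% interval -0.44 to 1.05). H2-Ab1, the matching beta chain gene (chromosome 17, 34257689 to 34269419), had control values of 13.37, 13.80, 13.29 and 14.30 and MEKi values of 13.95, 13.30, 14.60 and 13.72. Control 4 and MEKi 3 again stood highest, and control 1, control 3 and MEKi 2 lowest. The label difference of H2-Ab1 was 0.20 (SE 0.29, interval -0.46 to 0.86). For H2-Eb1, the beta chain gene of the I-E molecule (chromosome 17, 34305867 to 34316674), the values were 13.37, 13.77, 13.29 and 14.50 under the control label and 14.15, 13.27, 14.75 and 14.12 under the MEKi label. It differed by 0.34 between the labels (SE 0.34). The alpha chain gene of I-E was on the list of further class II chains under both of its names, and neither is among the genes tested.

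**Figure D1:**
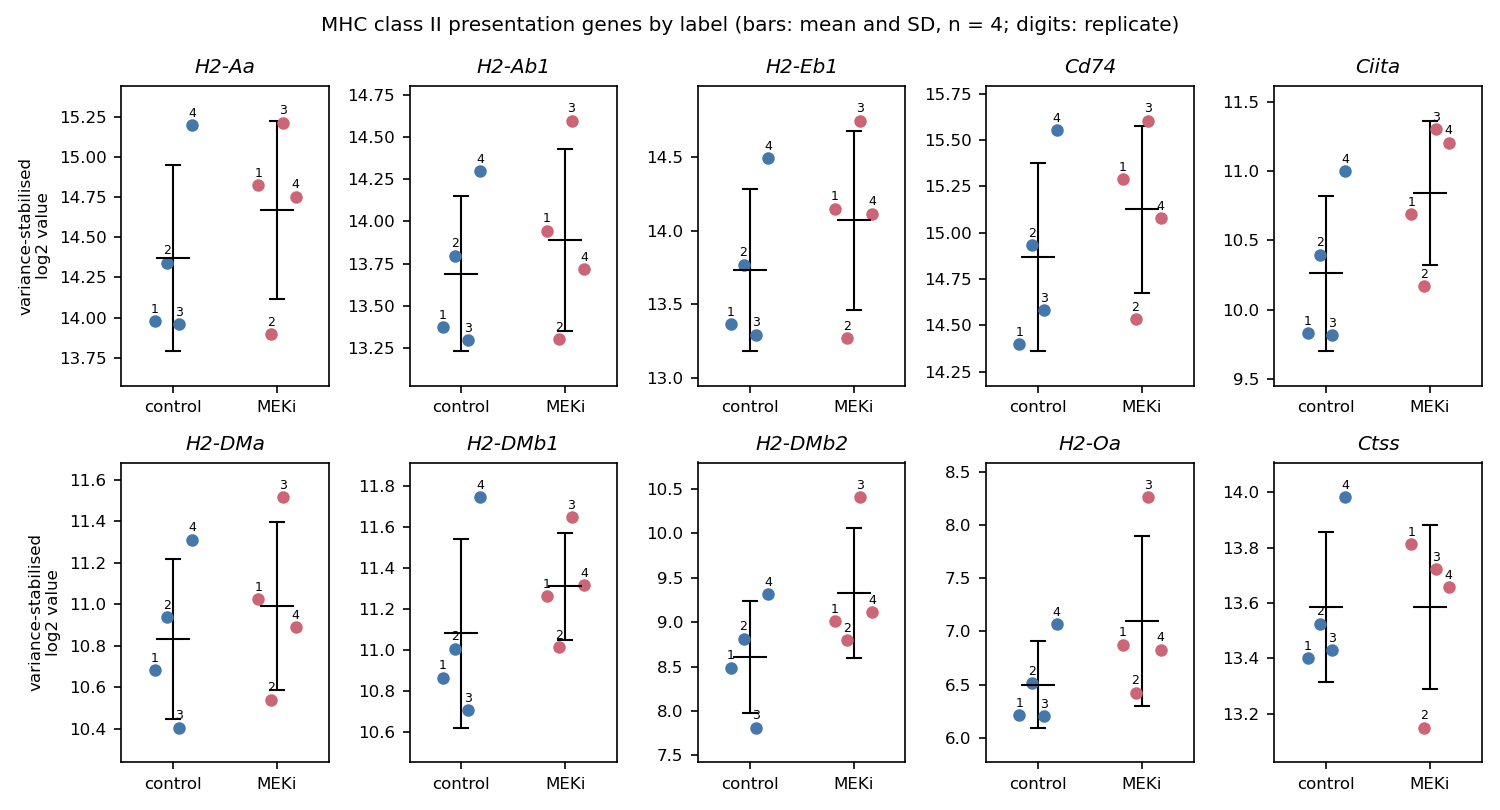
Variance-stabilised log2 values of the 10 class II presentation genes in the 4 control and 4 MEKi libraries, with mean and SD as bars and the replicate number beside each point. The labels overlap for every gene, with control 4 and MEKi 3 near the top and control 1, control 3 and MEKi 2 near the bottom.

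The promoters of several members share a short layout, and whether it bears on how these genes varied across the tumours was not tested. RefSeq promoter windows (GRCm38.p6) were at hand for 7 of the 10 members: Ctss, H2-Oa, H2-DMa, H2-DMb1, H2-DMb2, H2-Aa and H2-Eb1. In the 250 bases before the start, both strands were searched for AAC followed after 25 to 27 bases of any kind by TGATTGG, a layout chosen after these windows had been read. It resembles the X and Y boxes known from class II promoters, where the RFX and NF-Y factors bind. It was found for 5 of the 7 members, H2-Aa, H2-Eb1, H2-DMb1, H2-DMb2 and H2-Oa, and in 98 of all 32851 windows (0.298%). Ctss and H2-DMa lacked it. In H2-DMb1 the stretch lies within annotated exons (45 bases by GENCODE M21), so it is not printed. The layout was also found for H2-Eb2 but not for H2-Ob, both class II chain genes outside the members. The shorter ATTGG, which is part of the layout, was found for 6 of the 7 members and in 33.8% of all windows. The stretches read 5′ to 3′ on the gene's strand, with AAC and TGATTGG in capitals, and lie at chr17:34287864-34287908 for H2-Aa (minus strand), chr17:34305772-34305815 for H2-Eb1, chr17:34145122-34145166 for H2-DMb2 and chr17:34092299-34092343 for H2-Oa (plus strand).
H2-Aa: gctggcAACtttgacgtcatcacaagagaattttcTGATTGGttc
H2-Eb1: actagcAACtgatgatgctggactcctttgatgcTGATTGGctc
H2-DMb2: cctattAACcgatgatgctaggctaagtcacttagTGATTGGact
H2-Oa: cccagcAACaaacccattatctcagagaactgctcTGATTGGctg
The spacing was 25 bases in H2-Eb1 and 26 in H2-Aa, H2-DMb2 and H2-Oa. A match describes the letters only, since no binding was measured here.

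Ciita, which encodes the transactivator that class II promoters depend on, had the smallest unadjusted p of the members. Its values were 9.83, 10.40, 9.81 and 11.002 in control 1 to 4 and 10.69, 10.17, 11.30 and 11.21 in MEKi 1 to 4. Control 4 lay above MEKi 1 and MEKi 2, so the labels overlapped. The means of 10.26 ± 0.56 and 10.84 ± 0.52 (SD, n = 4 each) differed by 0.58 (SE 0.31, 95% interval -0.12 to 1.29, limma unadjusted p = 0.0952, adjusted p = 0.9996 over all genes). Relative to H2-Aa, reads of Ciita per length were 0.0209, 0.0246, 0.0209 and 0.0210 of the H2-Aa level in control 1 to 4 and 0.0218, 0.0284, 0.0258 and 0.0332 of it in MEKi 1 to 4. This ratio was not tested, and it rests on exon lengths rather than on the isoforms in use. Ciita lies on chromosome 16 (10480059 to 10528418), and 329 of its 9535 exon bases overlap the antisense gene Dexi.

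The invariant chain gene Cd74 was the most abundant member. Reads scaled to exon length and library size (RPKM) averaged 799 ± 295 (SD, n = 8) for Cd74, and its lowest library had 478. On the log2 scale it lay at 14.40, 14.93, 14.58 and 15.55 in control 1 to 4 and at 15.29, 14.53, 15.60 and 15.08 in MEKi 1 to 4. As for the chains, the highest libraries were control 4 and MEKi 3, 1 under each label. The label difference was 0.26 (SE 0.29, interval -0.39 to 0.90). The ratio of Cd74 to H2-Aa, both per length, was steady: it ran from 2.83 to 3.52 over the 8 libraries (mean 3.16, SD 0.28), while H2-Aa itself spanned 2.99-fold in RPM.

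Cathepsin S, the protease that trims the invariant chain, varied least. Ctss (chromosome 3, 95526786 to 95556403) lay at 13.40, 13.52, 13.43 and 13.98 under the control label and 13.81, 13.15, 13.72 and 13.66 under the MEKi label. Its highest library was control 4 and its lowest MEKi 2, a span of 1.89-fold in RPM. The label means of 13.58 ± 0.27 and 13.58 ± 0.30 (SD, n = 4 each) differed by less than 0.01, with a 95% interval of -0.40 to 0.40.

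The genes of the peptide exchange factor followed each other across the tumours, and H2-DMb2 spanned a wider range than H2-DMa and H2-DMb1. H2-DMa, the DM alpha chain gene (chromosome 17, 34119541 to 34139101), had control values of 10.68, 10.94, 10.41 and 11.31 and MEKi values of 11.03, 10.54, 11.52 and 10.89. H2-DMb1, a DM beta chain gene, had 10.86, 11.01, 10.70 and 11.75 against 11.26, 11.01, 11.65 and 11.32. The label differences were 0.16 (SE 0.23) for H2-DMa and 0.23 (SE 0.22) for H2-DMb1. The per-length ratio of H2-DMa to H2-DMb1 stayed between 0.347 and 0.464 in all 8 libraries.

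H2-DMb2, a further DM beta chain gene next to H2-DMb1 (chromosome 17, 34143307 to 34151555 and 34153072 to 34160230), ranged from 117 reads in control 3 to 1580 in MEKi 3. Its values were 8.49, 8.81, 7.81 and 9.31 in control 1 to 4 and 9.01, 8.79, 10.41 and 9.11 in MEKi 1 to 4. MEKi 3 stood above every other library and control 3 below every other one. The label difference of 0.73 (SE 0.39, 95% interval -0.16 to 1.61, limma unadjusted p = 0.0971) was 0.37 without MEKi 3 and 0.46 without control 3. Across the 8 libraries H2-DMb2 had an r of 0.87 with H2-DMb1 (rho 0.95, exact permutation adjusted p = 0.00306, 0.93 without the 2 libraries farthest from the median). Its level per length was 0.395 of that of H2-DMb1 in MEKi 3 and 0.0966 in control 3, and 0.157 to 0.188 of it in the other 6 libraries. The genes are similar in sequence: of the 50-base windows in transcripts of H2-DMb1, 22.7% are found unchanged in H2-DMb2. The sources used here do not say how reads that fit both genes were counted, so both levels are uncertain.

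H2-Oa, which encodes the alpha chain of the DM inhibitor DO (chromosome 17, 34092340 to 34095234), was the least abundant member and had the widest span, 14.7-fold in RPM. Reads numbered 19, 41, 15 and 61 in control 1 to 4 and 64, 24, 296 and 86 in MEKi 1 to 4. The exact 95% Poisson interval, which covers counting error only, was 8.40 to 24.7 reads for control 3 and 263 to 332 for MEKi 3. On the log2 scale the control values were 6.21, 6.52, 6.20 and 7.07 and the MEKi values 6.88, 6.42, 8.26 and 6.83, with MEKi 3 well above the rest. The label difference was 0.60 (SE 0.37, interval -0.24 to 1.43), and it was 0.21 without MEKi 3 and 1.12 with voom on the recovered reads. H2-Ob, the gene of the DO beta chain and outside the members, showed the same high library, at 10.002 in MEKi 3 and between 7.54 and 8.22 in the other 7. In MEKi 3, H2-Oa reached 0.207 and H2-Ob 0.214 of the H2-DMa level per length, while the other libraries ran from 0.0329 to 0.0734 for H2-Oa and from 0.0556 to 0.0761 for H2-Ob. Of the 1407 exon bases of H2-Oa, 321 overlap the antisense gene BC051537, and of the 3448 of H2-DMa, 360 overlap Brd2. The library kit keeps strand, but the sources used here do not say whether the counting used it.

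**Figure D2:**
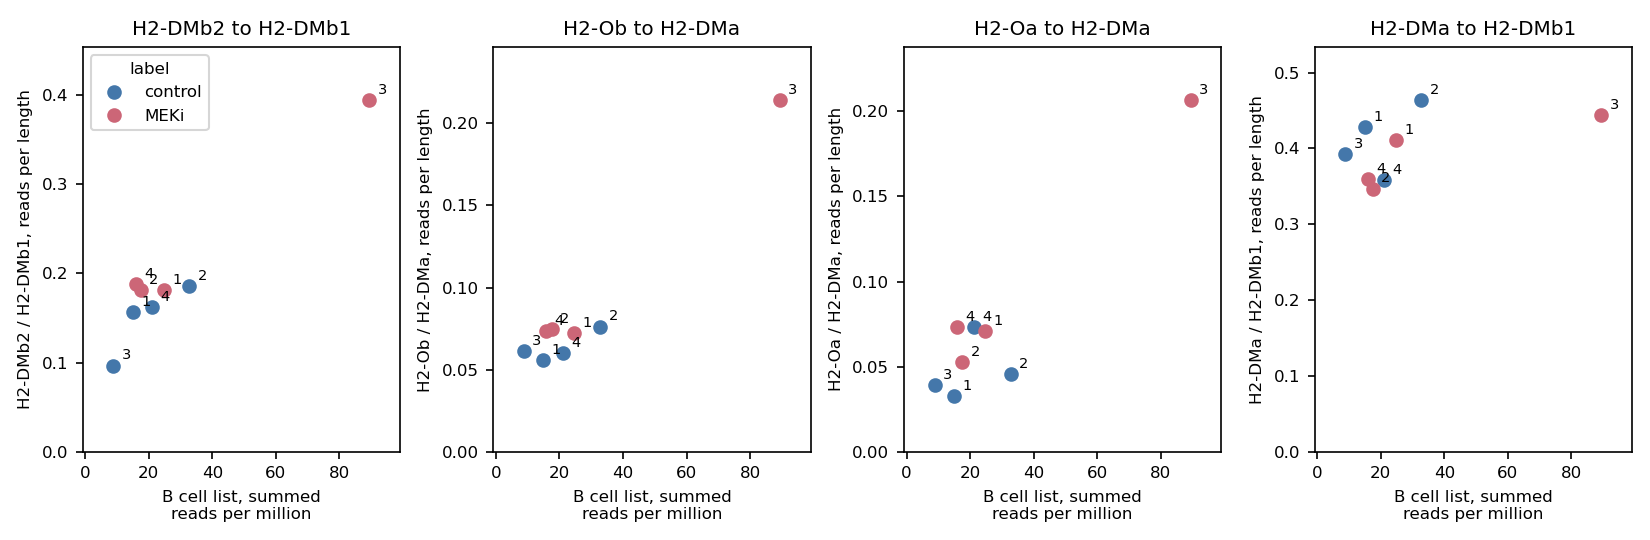
Per-length read ratios of DM and DO genes in each library (vertical axes, from 0) against the summed RPM of 10 B cell markers, with colours for the labels and replicate numbers beside the points. MEKi 3 stands apart at 89.4 RPM and ratios of 0.395, 0.214 and 0.207, but not in the ratio of H2-DMa to H2-DMb1.

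Neighbouring members kept their order of levels in every library except at 2 places. Per length, Cd74 averaged 799 RPKM, Ctss 356 ± 82 and H2-Eb1 331 ± 148, H2-Aa followed at 259 ± 111 and H2-Ab1 at 227 ± 91 (SD, n = 8 each). Next came H2-DMb1 (54.9 ± 17.8), H2-DMa (21.9 ± 7.1), H2-DMb2 (11.4 ± 8.2), Ciita (6.41 ± 2.95) and H2-Oa (1.91 ± 2.15). Ctss lay above H2-Eb1 in 7 of 8 libraries by a mean log2 ratio of 0.20 ± 0.37, and H2-Aa above H2-Ab1 in 7 of 8 by 0.17 ± 0.18 (SD). In both pairs the mean log2 ratio was smaller than its SD over the libraries, and the order was not tested. All other neighbours kept their order in 8 of 8 libraries. Lengths are unions of all annotated exons, which puts genes with long minor isoforms too low. Such a bias is alike in every library, so a kept order cannot show it. H2-DMa had 939 to 3507 reads per library and H2-DMb1 1166 to 3893, over 3448 and 1681 exon bases.

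Between the labels none of the 10 members was called. All 10 had higher means under the MEKi label, where 51.6% of all genes did. With the acinar score as a covariate H2-Ab1, H2-DMa, H2-DMb1 and Ctss turned to lower means, and without MEKi 3 H2-Ab1 and H2-DMa did, as did H2-DMa and Ctss without control 2 and control 3. Ctss, whose difference was near 0, turned with limma voom on the recovered reads and with 6 of the 8 single libraries left out. Limma called 0 of the 10 after Benjamini-Hochberg adjustment over all genes (smallest adjusted p = 0.9996), against a background of 0.00523%, which is the single gene 9530002B09Rik, named here after its values were seen. At an unadjusted p under 0.05 limma found 0 of the 10, where 1.77% of all genes passed, and voom likewise called 0 of the 10. The labels overlapped for all 10, against 1.27% of all genes without overlap. The median difference over the members was 0.28 and that over all genes 0.0055. On the variance-stabilised scale the upper interval ends ran from 0.40 for Ctss to 1.61 for H2-DMb2. A step on this scale stands for a larger change in a scarce gene, so these ends do not bound the change in reads there. With voom on the recovered reads the difference was 1.12 (SE 0.68) for H2-Oa, against 0.60 (SE 0.37) in the main fit. For the abundant Cd74 it was 0.26 in both fits. The mean over the members was 11.75 ± 0.47 and 12.09 ± 0.49 (SD, n = 4), and the difference of 0.34 was 0.14 without MEKi 3, 0.21 without control 3, 0.55 without control 4 and 0.53 without MEKi 2. It was 0.08 with the acinar score as a covariate and 0.16 when control 2 and control 3, the acinar-rich libraries, were left out.

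**Figure D3:**
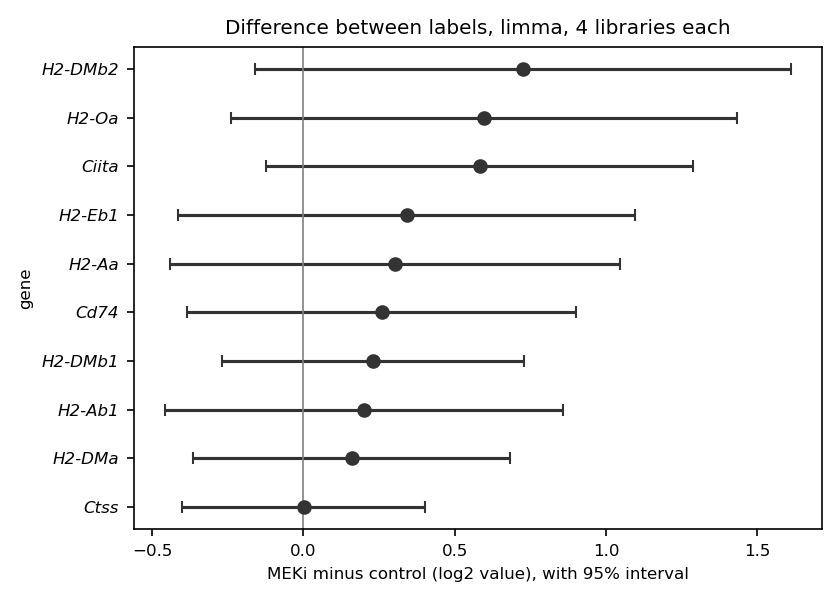
Difference of each class II gene between the labels (MEKi minus control, log2 value) with its 95% interval from limma, 4 libraries per label. Every interval includes 0, and the estimates run from near 0 for Ctss to 0.73 for H2-DMb2.

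What the labels did not order, the tumours did: the same libraries were high or low for nearly every member. MEKi 3 was the highest library for 8 of the 10 genes and control 4 for the other 2, and for 8 genes these were the top 2 libraries. Control 1, control 3 and MEKi 2 were the lowest 3 libraries for 9 of the 10. Together the 10 genes took between 0.246% (control 3) and 0.669% (MEKi 3) of all reads. Over the 45 pairs of members Pearson's r across the 8 libraries ran from 0.52 to 0.99 with a median of 0.89, and Spearman's rho from 0.71 to 1 with a median of 0.90. Of the 45 pairs, 43 had an adjusted p under 0.05 by the exact permutation test of r (two-sided, adjusted over the 45 pairs) and 44 by that of rho. The pairs share the same 10 genes and 8 libraries, and the share that passes over other gene pairs was not computed. H2-Aa and H2-Eb1, chain genes of different class II molecules, ranked the 8 libraries identically (r = 0.99, rho = 1, exact permutation adjusted p = 0.000558), with an r of 0.997 without the 2 libraries farthest from the median. The pairs of Ctss with H2-DMb2 (r = 0.52, rho = 0.79, exact permutation adjusted p = 0.173) and with H2-Oa (r = 0.57, rho = 0.83, exact permutation adjusted p = 0.142) did not pass by r. Their r was 0.78 and 0.87 without the 2 libraries farthest from the median.

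**Figure D4:**
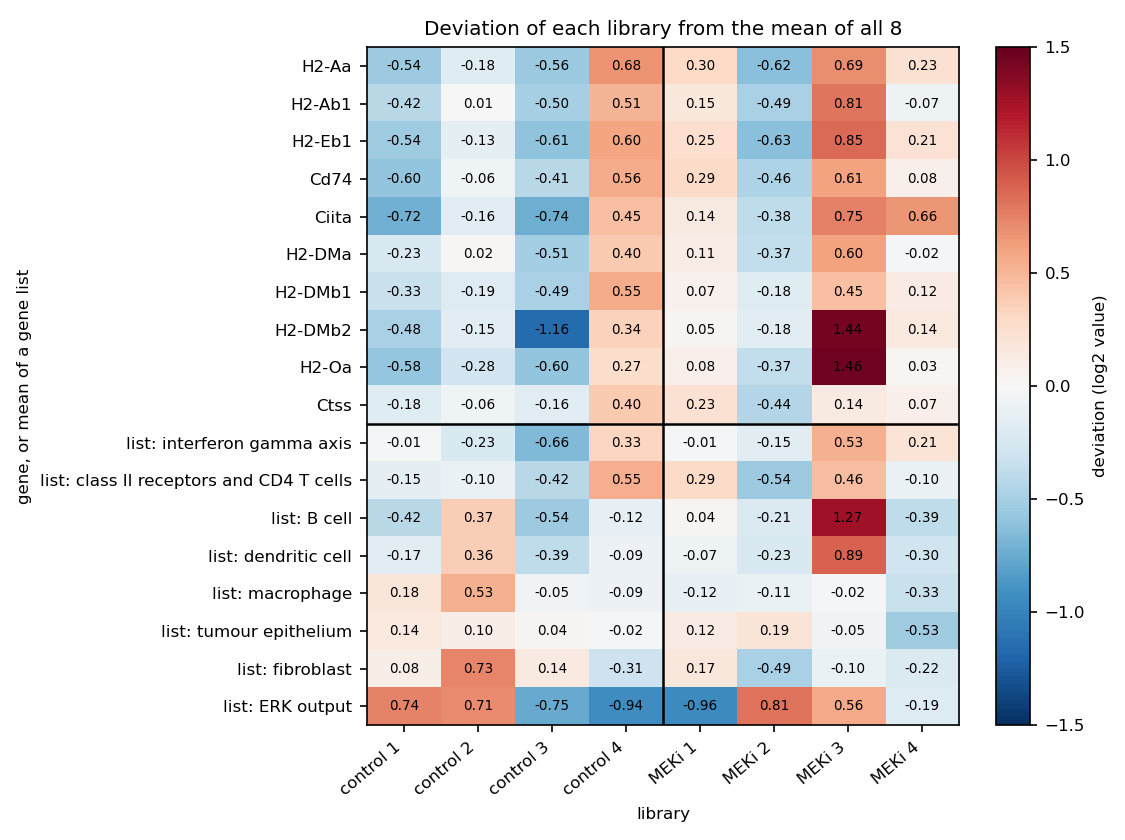
Deviation of each library from the mean of all 8 for the 10 class II genes (upper block) and for the means of 8 gene lists (lower block), in log2 value, with the control libraries left of the line. The members are high in control 4 and MEKi 3. So are the interferon gamma axis (0.33 and 0.53) and the list of class II receptors and CD4 T cells (0.55 and 0.46). Not high in both are the B cell (-0.12 and 1.27), dendritic cell (-0.09 and 0.89), macrophage (-0.09 and -0.02) and ERK output lists (-0.94 and 0.56).

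Dusp6 gave no ordering of the members. Its 8 values fall into a low group (control 3, control 4 and MEKi 1, at 8.88 to 9.31) and a higher one (the other 5, at 11.01 to 12.20), so no correlation over the 8 libraries is given, and neither group holds enough libraries for one of its own. Beside low Dusp6 the class II genes were at their lowest and near their highest: the mean of the members was 11.35 in control 3, 12.40 in control 4 and 12.09 in MEKi 1. Beside high Dusp6 it was 11.46 in control 1, 11.80 in control 2, 11.51 in MEKi 2, 12.70 in MEKi 3 and 12.07 in MEKi 4. Control 3 and control 4, with Dusp6 values 0.07 apart, differed by 1.05 in that mean. MEKi 2 and MEKi 3, also 0.07 apart in Dusp6, differed by 1.19. With Dusp6 as a covariate the mean label difference was 0.35, against 0.34 without it.

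**Figure D5:**
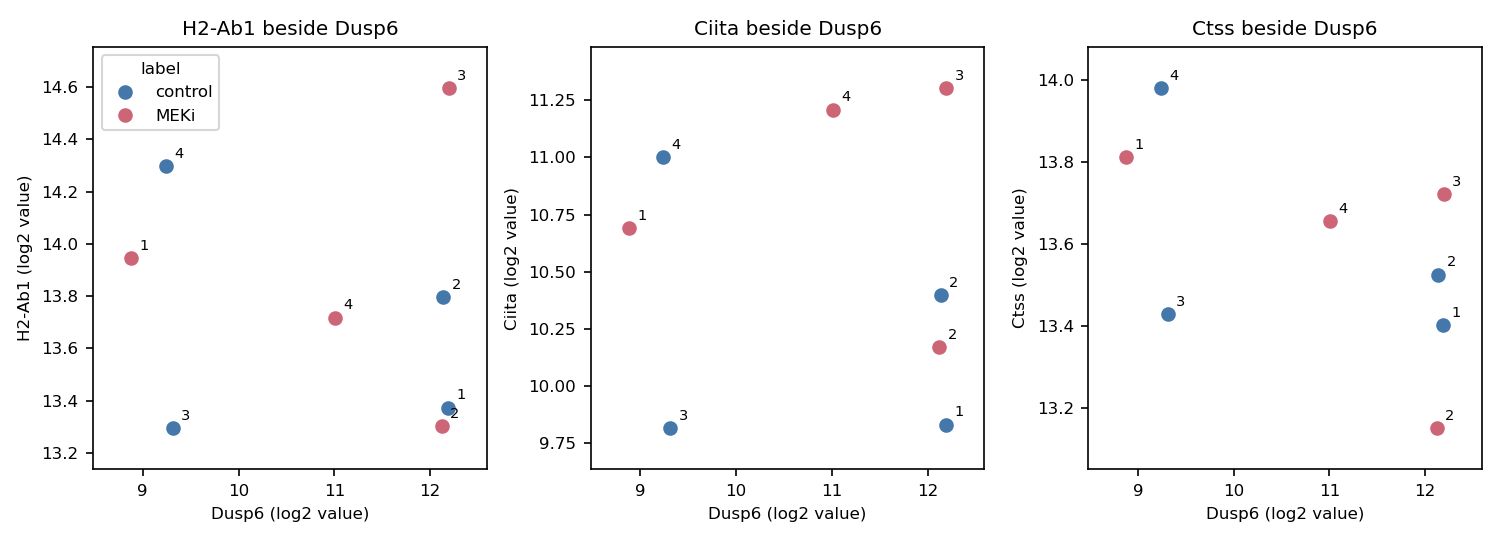
H2-Ab1, Ciita and Ctss (vertical axes, log2 value) against Dusp6 (horizontal axes, log2 value) in the 8 libraries, with colours for the labels and replicate numbers beside the points. Low and high class II values occur both among the 3 libraries with Dusp6 under 10 and among the other 5.

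Irf1, of the class II transcription factors, and the cytokine gene Ifng correlated with H2-Ab1 and Ciita over the libraries, though Ifng did so with Ciita by r only. H2-Ab1 and Ciita were each set against 13 fixed partner genes, and the 24 relations without Dusp6 were tested over the 8 libraries by exact permutation with adjustment over the 24. For Ciita, r was 0.93 (rho 0.90, exact permutation adjusted p = 0.0140) with Irf1, a transcription factor gene that interferon induces. It was 0.96 (rho 0.98, exact permutation adjusted p = 0.00655) with Cd4, the co-receptor gene of helper T cells, which some myeloid cells also express. The relation of Cd4 to H2-Ab1 did not pass (r = 0.69, rho = 0.74, exact permutation adjusted p = 0.123, 0.96 without 2 libraries). Without the 2 libraries farthest from the partner's median, r with Ciita was 0.88 for Irf1 and 0.99 for Cd4. For H2-Ab1, r was 0.91 with the interferon gamma gene Ifng (rho 0.93, exact permutation adjusted p = 0.0140, 0.81 without 2 libraries), although Ifng had only 4 to 32 reads per library. It was 0.86 with Irf1 (rho 0.88, exact permutation adjusted p = 0.0308), and 0.76 without 2 libraries. Between Ifng and Ciita r was 0.78 (exact permutation adjusted p = 0.0397), and 0.65 without 2 libraries. Their rho of 0.76 did not pass (exact permutation adjusted p = 0.0980). In all, 9 of the 24 relations passed by r and 6 by rho, but 1 passed by r without MEKi 3 and 0 without control 3.

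Markers of the cells that carry class II moved with the members to different degrees, and in tumour tissue fewer cells of a type and less RNA per cell cannot be told apart. The macrophage gene Adgre1 had an r of -0.06 with H2-Ab1 (rho -0.12, exact permutation adjusted p = 0.958, -0.58 without 2 libraries) and of -0.02 with Ciita. Flt3, a receptor gene of dendritic cells and their precursors, had an r of 0.86 with H2-Ab1 (rho 0.90, exact permutation adjusted p = 0.0175, 0.64 without 2 libraries). Zbtb46, the other dendritic cell marker among the partners, did not pass with H2-Ab1. Its r was 0.64 (rho 0.33, exact permutation adjusted p = 0.137) and fell to 0.14 without 2 libraries. The B cell receptor gene Cd79a had an r of 0.73 with H2-Ab1 that did not pass (rho 0.60, exact permutation adjusted p = 0.0796) and was 0.25 without 2 libraries. Cd79a lay at 8.35 in MEKi 3 and between 6.13 and 7.29 in the other 7. Epcam, of epithelial cells, and the acinar gene Cpa1 had r values of -0.08 and -0.57 with H2-Ab1 (rho -0.43 and -0.67), and neither passed (exact permutation adjusted p = 0.9395 and 0.2083). Without 2 libraries these were -0.84 and -0.65. Epcam lay at 10.70 in MEKi 4 and between 12.66 and 13.10 in the other 7.

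As whole lists, none of these cell types separated the labels. The 10 B cell markers, none at 0 reads in any library, summed to 8.81 to 32.8 RPM under the control label and 15.9 to 89.4 under the MEKi label, the top being MEKi 3. All 10 had higher means under the MEKi label (median difference 0.37), but without MEKi 3 this held for 6 of 10 (median 0.02). Without control 3 the median was 0.19 and all 10 remained higher in mean. The 12 dendritic cell markers summed to 111 to 201 and 132 to 307 RPM, again highest in MEKi 3, with 10 of 12 higher in mean (median 0.20). Without MEKi 3 the direction turned, with 2 of 12 higher (median -0.11), and without control 3 the median was 0.04. The 14 macrophage markers summed to 1933 to 2812 and 2149 to 2437, with 13 of 14 lower in mean (median -0.24), and control 2 was the highest library. Without control 2 the median was -0.11, with 12 of 14 lower. In none of these lists did limma call a gene, and none had a gene at an unadjusted p under 0.05. Control 4, high for the class II genes, had 21.1 RPM of B cell markers and 177 of dendritic cell markers, the latter behind MEKi 3 (307) and control 2 (201). By list mean on the log2 scale, control 4 lay below the mean over all libraries for both lists. Its deviation was -0.12 for B cell and -0.09 for dendritic cell markers. The 9 genes of class II receptors and CD4 T cells summed to 116 RPM in control 4 and 101 in MEKi 3, the top libraries, and to 34.3 to 85.1 in the others. The part of these cell types in the class II levels was not tested.

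No gene in the rest of the pathway was called between the labels. Of the 12 factors that act at class II promoters or at Ciita, 9 had higher means and 0 were called (median 0.06). Irf1 had 12.02 ± 0.39 and 12.29 ± 0.35 (SD, n = 4 each), and Creb1, a factor gene of the X2 box, differed by 0.14. Among the 12 genes of endosomal processing 6 were higher and 6 lower in mean (median -0.01; 3 of 12 higher without MEKi 3 or without control 1), with the protease genes Ctsl and Lgmn at -0.24 and -0.17 and Sppl2a, whose product clears the last invariant chain fragment, at 0.12. The 8 genes of class II turnover and costimulation had a median of 0.07, which was -0.11 without MEKi 3 and 0.02 without control 3: the ubiquitin ligase gene March8 differed by 0.16, the ligand gene Cd274 by 0.16 and Cd40, which CD4 T cells engage, by 0.20. Of the 9 genes of class II receptors and CD4 T cells 4 were higher in mean (median -0.06; 8 of 9 without control 4 or without MEKi 2, 3 of 9 without MEKi 3 or without control 3), led by Cd4 at 0.72 (SE 0.37) and the class II receptor gene Lag3 at 0.26. The interferon gamma axis had 13 of 15 genes higher in mean (median 0.22; 11 of 15 and a median of 0.05 without MEKi 3, and of 0.07 without control 3), with the interferon-induced GTPase genes Gbp4 at 0.69, Iigp1 at 0.65 and Gbp3 at 0.55. Limma called 0 genes in each of these lists, with 0 at an unadjusted p under 0.05. Of the further class II chains, H2-Eb2 lay at 6.52 ± 0.62 and 7.06 ± 0.51 (SD, n = 4 each), with 13 to 196 reads per library.

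Outside the members, the genes most like the mean of the members were sought among 10585 named genes with a mean value of at least 8. The 8 with the highest Pearson r over the 8 libraries were Ppfia4, Ube2l6, Phf11b, Hdac1, Neurl3, Ptpn6, Drap1 and Ifi35, with r from 0.95 to 0.97 and rho from 0.86 to 0.98. Ube2l6, an enzyme gene of the interferon-induced ISG15 pathway, ran from 9.26 in control 3 to 10.53 in MEKi 3. Ptpn6, the phosphatase SHP-1 of blood cells, ran from 10.27 in MEKi 2 to 11.14 in MEKi 3. Hdac1, a histone deacetylase gene, had a rho of 0.98 within a span of 0.32. These r values were picked as the highest of 10585 and carry no test.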

How the data were processed

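RNA from pancreatic tumour isografts of 8 mice was sequenced from stranded total RNA libraries, per the labels' protocols. Per the submitters' processing notes the authors used STAR 2.5.3a, DESeq2 1.18.1 and GRCm38. The sources used here do not give the annotation, counting or filter. The authors deposited log2 values after variance stabilisation, as the table's name says. The transformation was inverted in closed form from its floor of 5.115 (0 reads), which gave whole reads (within 0.01) for 100.0% of values in every library. No pair of libraries was close to sampling noise: in the closest, control 4 and MEKi 1, the median squared deviation was 4.36 times that of sampling noise. The 32 rows that name no gene (0.101% to 0.167% of reads) were left out, and 86 symbols found on more than 1 row kept their most abundant row. Columns were matched to samples by sample name and title.

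The label test was limma 3.58.1, run under R 4.3.3 over every gene (trend, no covariate, two-sided, Benjamini-Hochberg over 19129 genes, threshold 0.05), after a test on simulated data. Correlations used exact permutation of all pairings. Per-length levels use exon unions from GENCODE M21, and coordinates count from 1. Partners, lists and the named genes (members, partners, the 3 smallest p of each list described, the 8 most alike) were written down as rules, with earlier results of these data known. The values of 1 gene among them are not reported here. Alternatives were quantile normalization, voom, robust moderation, aligned medians, a fit with no trend, a filter to the most abundant 75% of genes, all rows kept, acinar and Dusp6 covariates, the replicate block, log2 RPM with a pseudocount of 1, and each library left out. Leaving out control 2 and control 3, and each library in turn for the gene lists, was chosen after seeing the data. The labels name no batch. Figures used matplotlib 3.10.9.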

Additional observations from a re-analysis of the deposited data

Results flagged for a closer look

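Within a label of 4 libraries, 17 values stood farther from the other 3 than Dixon's 95% limit allows, among 180 groups looked at. Chance alone flags about 1 in 20 groups. These groups share genes and libraries, so the count cannot be judged against that rate. Of the 17 values, 11 were in MEKi 3. There the per-length ratio of H2-DMb2 to H2-DMb1 was 0.395 (0.181 to 0.188 in the other MEKi libraries), that of H2-Ob to H2-DMa 0.214 (0.0724 to 0.0747) and that of H2-Oa to H2-DMa 0.207 (0.0527 to 0.0734). In the same library H2-Ob lay at 10.002, the B cell gene Ms4a1 at 8.15 (6.16 to 6.36 in the others), the myeloid and B cell factor gene Irf8 at 10.82 (9.71 to 9.85) and Cd40 at 8.66 (7.49 to 7.68). The list means of MEKi 3 that stood apart were 8.90 for the other class II chains, 10.28 for the class II transcription factors, 13.06 for endosomal processing and 9.60 for turnover and costimulation. Control 3 stood low for Cd40 (7.23 against 7.77 to 7.87) and Cd274 (9.58 against 10.17 to 10.28). Among the control libraries, control 4 had the highest ratio of H2-Eb1 to H2-Ab1 (1.52 against 1.295 to 1.32) and control 2 that of Ciita to H2-Aa (0.0246 against 0.0209 to 0.0210). MEKi 4 was low for the tight junction gene Cldn4 (7.32 against 8.91 to 9.20) and MEKi 1 for Spry2, an ERK feedback gene (7.77 against 9.38 to 9.66).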

How the results depend on the processing

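Over 190 combinations of a member and an alternative, 0 members were called, 175 kept a higher mean under the MEKi label and 15 turned. With the acinar score as a covariate H2-Ab1 turned to -0.070, H2-DMa to -0.087, H2-DMb1 to -0.022 and Ctss to -0.10. Without both acinar-rich control libraries H2-DMa was -0.0040 and Ctss -0.11, and with voom Ctss was -0.00076. With a library left out the difference ran from -0.035 to 0.40 for H2-Ab1, -0.015 to 0.32 for H2-DMa and -0.075 to 0.15 for Ctss. H2-Ab1 and H2-DMa turned only without MEKi 3. The others stayed above 0, from 0.12 to 0.58 for H2-Aa, 0.11 to 0.61 for H2-Eb1, 0.098 to 0.49 for Cd74, 0.10 to 0.45 for H2-DMb1, 0.43 to 0.83 for Ciita, 0.37 to 0.96 for H2-DMb2 and 0.21 to 0.82 for H2-Oa. The count of called genes was 1 (338 at an unadjusted p under 0.05 by limma). It was 0 with the 75% filter (159 unadjusted), the acinar covariate (274), the Dusp6 covariate (375) and the replicate block (380), and ran from 0 to 2 with a library left out. It was 4 without both acinar-rich control libraries (9530002B09Rik, Pbsn, Msmb and Defb50, named after their values were seen); without control 4, Sbp joined the gene called. The cause was not tested. Same-numbered libraries did not deviate together (correlations of -0.42, 0.26, -0.60 and -0.04 for numbers 1 to 4). Libraries with unlike numbers ran from -0.43 to 0.47, so this check cannot tell whether the numbers pair the mice. The count of member pairs that passed ran from 39 to 43 with a library left out, and that of partner relations from 0 to 10, with 4 without control 1 and 5 without control 4, MEKi 1 or MEKi 2. Fewer than 100 reads in every library but MEKi 3 limit H2-Oa.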
